A study of Mus musculus with 6 samples.

Results

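Pyrimidines, the bases uracil, cytosine and thymine with their nucleosides and nucleotides, are made from small precursors, recovered from RNA and DNA by salvage, and broken down. Breakdown starts when uridine phosphorylases or thymidine phosphorylase release the base, which dihydropyrimidine dehydrogenase, dihydropyrimidinase and beta-ureidopropionase then open and degrade in turn. Dihydropyrimidine dehydrogenase is the rate-limiting enzyme of this route and also inactivates the drug 5-fluorouracil, and it is best known from the liver and the gut.

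The genes described here are 10 enzymes of these routes, namely Dpyd, Dpys, Upb1, Upp1, Upp2 and Tymp of degradation, Cda and Uck2 of salvage and Umps and Cad of synthesis. They were chosen by name, with results of these arrays already known, and Dpyd was known as a gene with one of the largest falls. Its difference between the groups is therefore given as a description, without a test. Each gene was represented by the probe set (the group of array probes designed against a transcript) with the highest mean over the 6 arrays among those annotated to that gene alone. In this way 9 of the 10 genes were measured, out of 18193 genes with a probe set. Tymp, thymidine phosphorylase, had no such probe set and was not analysed here.

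The arrays held RNA from the proximal colon of 3 Hnf4a mutant mice and 3 control mice, all 1 year of age and described as littermates. Hnf4a encodes a nuclear receptor of liver and gut epithelium. In the mutants the floxed gene was deleted in the intestinal epithelium by Cre driven from the Villin promoter, whereas the RNA came from colon tissue rather than isolated epithelium. The study describes severe colon disease in mutants of this age, with crypt loss and immune cell infiltrates. Loss of Hnf4a and that disease therefore cannot be told apart in these arrays. The controls are labelled wildtype, and whether they carried floxed alleles or Cre is not given in the sources used here. By the labels the 3 controls and mutant replicate 1 are female, while the remaining mutants, replicates 2 and 3, are male.

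The label of mutant replicate 1 went against its RNA. Xist, the RNA of the inactive X chromosome, had a log2 signal of 5.03, 5.19 and 5.32 in mutant replicates 1, 2 and 3, against 10.96, 9.94 and 10.90 in control replicates 1, 2 and 3. The 3 Y-linked genes measured, Eif2s3y, Kdm5d and Uty, lay between 5.35 and 8.12 in the mutants and between 2.75 and 4.01 in the controls. All mutants were thus male and all controls female by their RNA, so sex and genotype cannot be told apart. Since the controls lack a Y chromosome, the 9 probe sets of these genes gave a signal of absent RNA, which ran from 2.56 to 4.01 and is called background below. Other probe sets can read higher without their RNA, as Xist, at 5.03 to 5.32 in the male mutants, may show. A signal above this range is therefore not by itself evidence of expression. Mutant replicate 2 stood apart from the other arrays in smooth muscle markers, whose median relative to the control mean was -0.29, -3.95 and -0.46 in mutant replicates 1, 2 and 3, and in markers of fibroblasts and matrix, at -0.29, -3.47 and -0.59. For 12 gut epithelium markers this median was 0.05, 0.20 and 0.19. Their log2 summed signal was 16.45 to 16.58 in mutants and 16.33 to 16.47 in controls, so gut epithelium was represented in each array. For 6 of the 12 the groups did not overlap, with Cdh1, Krt8, Krt18, Krt19 and Elf3 higher in mutants and Krt20 lower. In the limma test described below 0 of the 12 passed. The scaling to gut epithelium markers used below thus takes in genes that differed between the groups. These markers do not tell which part of the gut was sampled. Hnf4a itself was at 10.17, 10.09 and 10.15 in the mutants, against 12.23, 12.01 and 11.97 in the controls. The place of its probe sets in the gene, inside or outside the deleted exons, was not analysed here.

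The sequence before the start of Dpyd is shown because Dpyd was the gene with the large difference and because HNF4A binds DNA. It is set beside that of Upb1, the enzyme of the same ring-opening route that, unlike Dpys, was above background in every array. Both are from RefSeq on GRCm38.p6, plus strand, written from 5′ to 3′ and ending at the last base before the annotated gene. The capitals mark a match to CAAAGNCCA, a looser form of the HNF4 motif CAAAGTCCA.
Dpyd, chr3:118561930-118562108: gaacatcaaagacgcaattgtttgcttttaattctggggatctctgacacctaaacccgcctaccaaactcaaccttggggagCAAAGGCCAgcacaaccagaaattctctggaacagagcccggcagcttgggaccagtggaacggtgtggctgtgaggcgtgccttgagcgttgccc
Upb1, chr10:75406661-75406910: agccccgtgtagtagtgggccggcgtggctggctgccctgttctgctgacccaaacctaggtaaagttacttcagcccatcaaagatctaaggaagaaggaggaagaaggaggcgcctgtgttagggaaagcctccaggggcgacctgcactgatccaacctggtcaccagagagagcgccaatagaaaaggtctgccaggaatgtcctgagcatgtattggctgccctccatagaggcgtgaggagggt

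Start sites with a RefSeq window, from 250 bases before to 50 bases after the site, were found for 9 of the 10 genes, in 12 windows, and both strands were searched. The match in Dpyd, at chr3:118562013-118562021, begins 167 bases before the start site of its window. Neither CAAAGTCCA nor the E-box CACGTG, the site of MYC and related factors, was found in any of the 12 windows, and Dpyd held the only match to CAAAGNCCA, a form that takes in every match to CAAAGTCCA as well. Of all 32851 windows of this length, 1.98% held CAAAGNCCA, 0.475% held CAAAGTCCA and 7.15% held CACGTG. A match describes letters in the window and does not show that the factor binds there.

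Dpyd RNA was near background in the mutant colon. Its log2 signal was 4.27, 3.71 and 4.17 in mutant replicates 1, 2 and 3, against 9.14, 9.16 and 9.09 in control replicates 1, 2 and 3. Mutant replicate 2 was inside the background and the other 2 mutants just above it, while the controls were nearly equal to each other. The means were 4.05 ± 0.30 in mutants and 9.13 ± 0.04 in controls (SD, n = 3 each), a log2 fold change of -5.08 (SE, the standard error, 0.16) or a 33.9-fold lower signal. Because part of the mutant signal may be background, the fall can be larger than measured. The log2 fold change was -5.19 without mutant replicate 1, whose label did not match its RNA, and -4.91 without mutant replicate 2, the lowest and the highest values with any 1 array left out. In RNA of colon tissue, fewer cells of a type and less RNA per cell cannot be told apart.

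A second probe set of Dpyd gave a difference of the same direction. It was at 3.16, 3.69 and 3.68 in the mutants and at 7.12, 7.34 and 7.34 in the controls, a measured log2 difference of -3.76. All 3 mutants were inside the background there, so this value is only a lower bound for the size of the fall. The third probe set of Dpyd lay between 2.78 and 3.14 in mutants and between 2.81 and 2.90 in controls. It was inside the background in every array and therefore cannot show a difference.

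**Figure D1:**
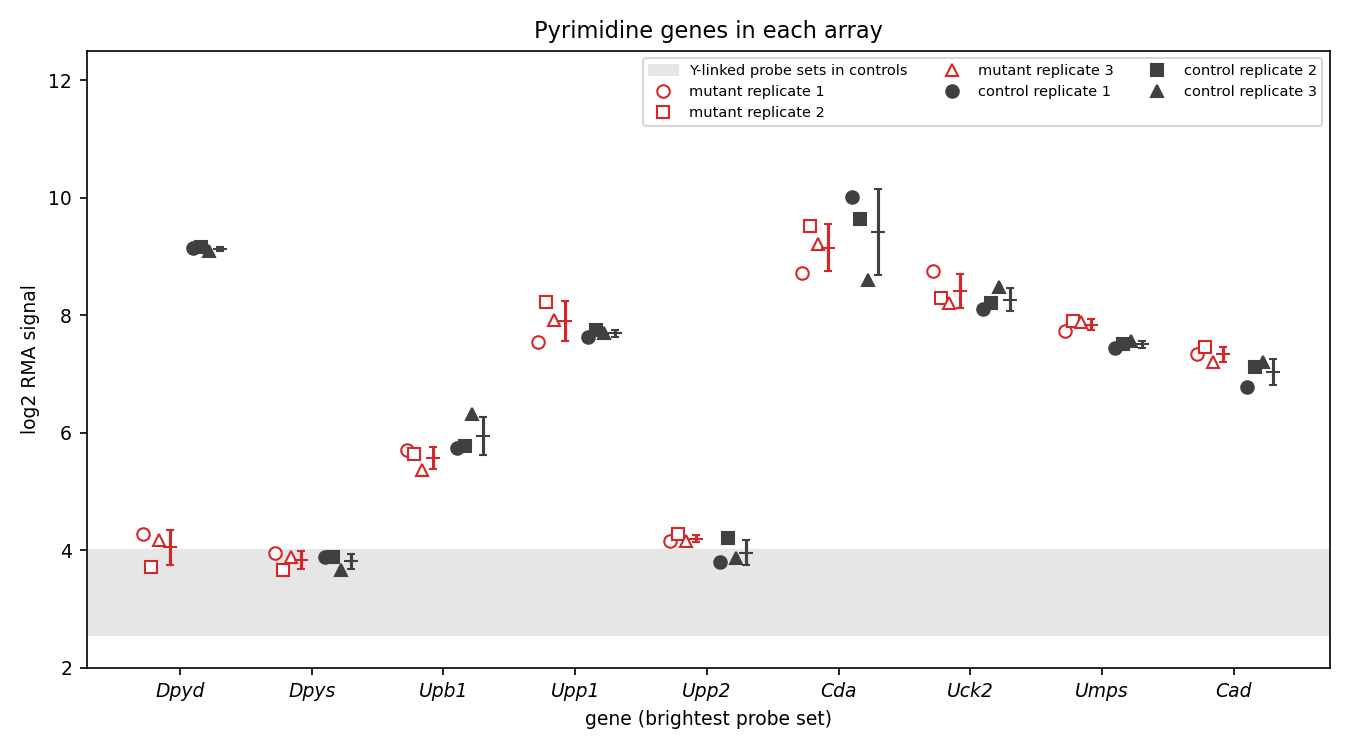
Log2 RMA signal (vertical axis) of the brightest probe set of each measured gene in the 3 mutant arrays (open red symbols) and the 3 control arrays (filled dark symbols); symbol shape gives the replicate, the bars are mean and SD, and the grey band is the background from 2.56 to 4.01. Dpyd lay between 3.71 and 4.27 in mutants, against 9.09 to 9.16 in controls, while Dpys lay in the band in all 6 arrays and the other genes differed far less.

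No other measured gene of the 10 passed the test. Across all probe sets limma gave an adjusted p under 0.05 for 0.484% of genes in the direction of a rise and for 0.396% in that of a fall, and for 0 of the other 8 genes in either direction. With the unadjusted p at or under 0.05, limma and SAM, the test named in the study's methods, each had 1 gene higher in mutants, Umps, and 0 lower, where limma had 10% of all genes higher and 6.18% lower and SAM had 9.78% higher and 5.77% lower. The 3 mutants lay above the 3 controls for Umps and Cad and below them for Upb1, where 14.5% of all genes had mutants above controls and 8.86% had them below. The log2 fold changes of the 8 genes ran from -0.38 to 0.33 with a median of 0.18, and the median of all genes was 0.05.

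No measured enzyme that acts after dihydropyrimidine dehydrogenase had a fall as large as the -5.08 of Dpyd. For Upb1, with a control mean of 5.95 and a background that reached 4.01, a fall of that size could not have been seen. The same holds for Dpys and Agxt2, which were inside the background in the controls as well. Aldh6a1, with a control mean of 8.65, had less room above the background than Dpyd, at 9.13. The comparison therefore does not show that a fall was limited to Dpyd. Upb1, beta-ureidopropionase, which catalyses the last step to the beta-amino acids, was at 5.71, 5.63 and 5.36 in mutant replicates 1, 2 and 3, against 5.75, 5.77 and 6.32 in control replicates 1, 2 and 3. The groups did not overlap, although mutant replicate 1 nearly reached control replicate 1, and the log2 fold change of -0.38 (SE 0.18, adjusted p = 0.435 from limma) did not pass. Its 95% interval ran from -0.82 to 0.06, and with 1 array left out it lay between -0.48 (without control replicate 1) and -0.19 (without control replicate 3, the highest array). Dpys, dihydropyrimidinase, which opens the ring, was at 3.95, 3.67 and 3.88 in the mutants and at 3.88, 3.89 and 3.67 in the controls. Its 3 probe sets were inside the background in all 6 arrays, so no level of Dpys and no change could be measured in this tissue. Aldh6a1 and Abat act on the products further down the route. Abat, 4-aminobutyrate aminotransferase, which also breaks down the neurotransmitter GABA, was at 6.93, 8.37 and 7.39 in mutants, against 9.41, 9.78 and 9.08 in controls. All 3 mutants were below all controls, with a log2 fold change of -1.86 (SE 0.37, adjusted p = 0.105 from limma). It passed once mutant replicate 2, with its low muscle and fibroblast markers, was left out (-2.26, adjusted p = 0.0341), and with array weights (-1.87, adjusted p = 0.0401), while its adjusted p lay between 0.0341 and 0.331 over all alternatives run with limma. The fold depended on the probe set, since the mean over all probe sets of Abat gave -0.86 (adjusted p = 0.219). Aldh6a1, methylmalonate semialdehyde dehydrogenase, had -0.35 (SE 0.15, adjusted p = 0.397), with overlapping groups. Agxt2, another aminotransferase of the route, was inside the background in every array.

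Neither of the uridine phosphorylases passed the limma test. Upp1, uridine phosphorylase 1, the form of most tissues, was at 7.55, 8.23 and 7.91 in mutant replicates 1, 2 and 3, against 7.63, 7.74 and 7.70 in control replicates 1, 2 and 3. The mutants spread on both sides of the controls, with mutant replicate 1 lowest and mutant replicate 2 highest of the 6 arrays. The log2 fold change was 0.21 (SE 0.17, adjusted p = 0.625 from limma), with a 95% interval from -0.20 to 0.62. It was 0.04 without mutant replicate 2 and 0.38 without mutant replicate 1. The median of 10 myeloid markers relative to the control mean was -0.23, -0.91 and -0.001 in mutant replicates 1, 2 and 3, and the log2 summed signal of the list was 9.31 to 10.90 in mutants and 10.76 to 11.08 in controls. The members went both ways, since Cd68, S100a8 and Itgam were higher and Lyz2 and Tyrobp lower in every mutant than in every control, and 0 of the 10 passed the test. Their part in the result of Upp1 was not tested. Upp2, the phosphorylase known from the liver, was at 4.17, 4.27 and 4.16 in mutants and at 3.81, 4.20 and 3.87 in controls. These values straddled the top of the background, 4.01, and 2 further probe sets of Upp2 were inside it in all arrays. Its log2 fold change of 0.24 (SE 0.13, adjusted p = 0.471) therefore rests on signals that are hardly told apart from none. Dpyd, Dpys, Upb1 and Upp2 are all known from hepatocytes, and 0 of 7 measured hepatocyte markers passed the test. Fgb and Fga were inside the background in all arrays, Alb, at 4.69 to 4.78 in mutants and 4.51 to 5.15 in controls, Ahsg and Apoh had overlapping groups, and Ttr and Apob were lower in every mutant than in every control. Ttr was at 6.45, 6.54 and 6.56 in mutants, against 7.44, 8.30 and 6.81 in controls. The log2 summed signal of the list was 8.06 to 8.98 in mutants and 10.40 to 10.69 in controls. In the controls most of it was Apob, which enterocytes also make, at 10.15 to 10.40, against 6.01 to 8.11 in mutants. The part of these cells in the results was not tested.

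Cytidine deaminase and uridine-cytidine kinase 2, of the salvage routes, varied within the groups as much as between them. Cda, which turns cytidine into uridine, was at 8.73, 9.52 and 9.21 in mutant replicates 1, 2 and 3, against 10.01, 9.63 and 8.60 in control replicates 1, 2 and 3. Control replicate 3 was the lowest of the 6 arrays and control replicate 1 the highest. The log2 fold change was -0.26 (SE 0.38, adjusted p = 0.790 from limma), the least precise of the 8 genes, and with 1 array left out it lay between -0.67 (without control replicate 3) and 0.04 (without control replicate 1). Its 95% interval ran from -1.15 to 0.63. Uck2, which phosphorylates uridine and cytidine, was at 8.75, 8.29 and 8.21 in mutants and at 8.11, 8.20 and 8.48 in controls. The groups overlapped, mutant replicate 1 was the highest array, and the log2 fold change of 0.15 (SE 0.17, adjusted p = 0.728) became -0.01 without it. The 6 probe sets of Uck2 gave log2 fold changes between -0.05 and 0.31.

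None of the synthesis genes passed the limma test, and their log2 fold changes were small and positive in the values as deposited. Umps, UMP synthase, which carries out the last steps to uridine monophosphate, was at 7.73, 7.90 and 7.88 in mutant replicates 1, 2 and 3, against 7.45, 7.50 and 7.56 in control replicates 1, 2 and 3. All mutants were above all controls, with a log2 fold change of 0.33 (SE 0.09, adjusted p = 0.229 from limma). Its other 3 probe sets had 0.29, 0.27 and 0.16, the last of them inside the background in every array. Cad, the enzyme with carbamoyl phosphate synthetase, aspartate transcarbamylase and dihydroorotase activity that starts the route, was at 7.34, 7.46 and 7.20 in mutants and at 6.78, 7.11 and 7.20 in controls. Mutant replicate 3 and control replicate 3 were nearly equal, 7.202 and 7.201. Cad had a log2 fold change of 0.30 (SE 0.14, adjusted p = 0.418), and its other 2 probe sets had 0.39 and 0.30 with overlapping groups. With 1 array left out the log2 fold change of Umps lay between 0.30 and 0.39, and that of Cad between 0.18 (without control replicate 1) and 0.39 (without control replicate 3). When the arrays were scaled to gut epithelium markers, which moved the median of all genes from 0.05 as deposited to -0.08, Umps had 0.20 and Cad 0.17. Dhodh, dihydroorotate dehydrogenase of the mitochondria, which links Cad and Umps, was at 5.83, 6.21 and 5.83 in mutants, against 5.52, 5.56 and 5.63 in controls (log2 fold change 0.39, SE 0.13, adjusted p = 0.293). The 5 synthesis genes, with the CTP synthases Ctps and Ctps2, had log2 fold changes from 0.07 to 0.39 with a median of 0.30. Of all genes, 60.4% had a positive value. Of these 5 synthesis genes 0 passed the limma test. With limma's unadjusted p of no more than 0.05, 2 of them were higher, against 10% of all genes. Ctps and Ctps2, at 0.10 and 0.07, changed sign to -0.04 and -0.07 with that scaling.

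**Figure D2:**
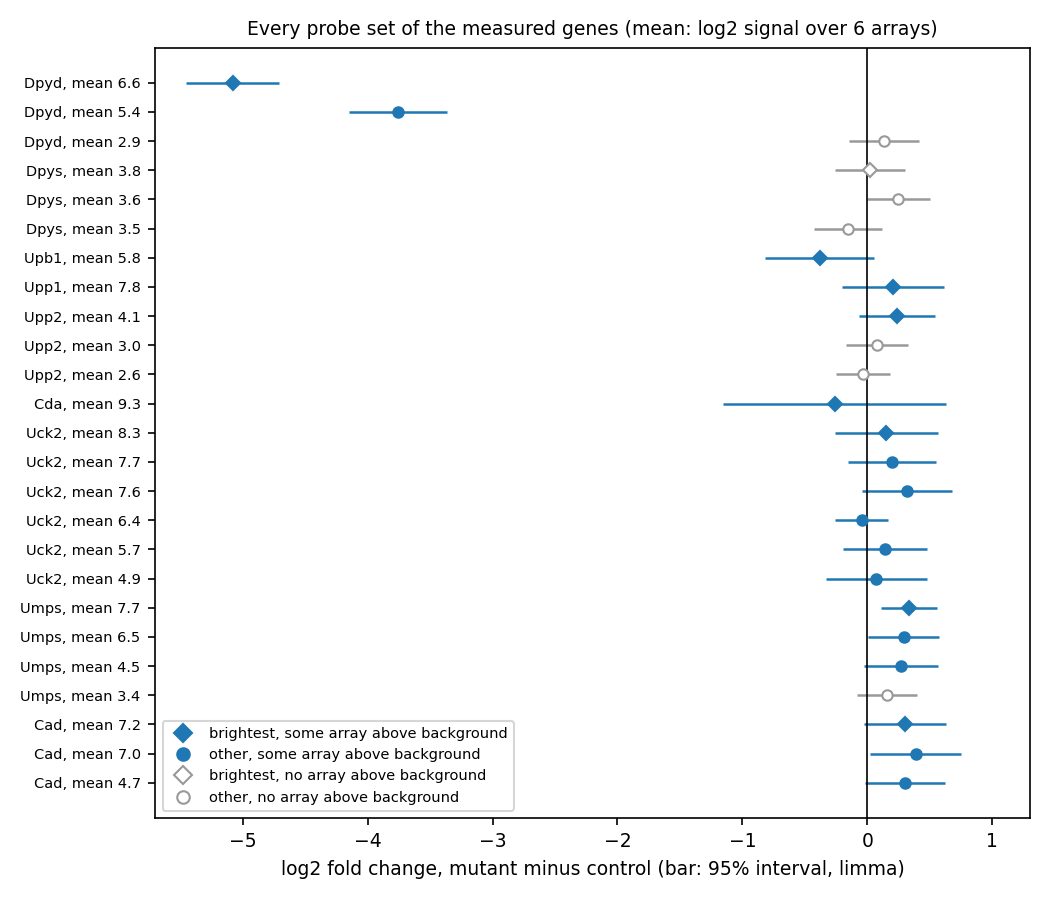
Log2 fold change, mutant minus control, with its 95% interval from limma (horizontal axis) for all 25 probe sets of the 9 measured genes (rows, with the mean log2 signal over the 6 arrays). Diamonds mark the brightest probe set of each gene and open grey symbols those inside the background in all 6 arrays. Dpyd stands at -5.08 and -3.76 in its 2 bright probe sets, the second a lower bound for the size of the fall. The log2 fold change of every probe set of Umps and Cad lies above 0, but several of their intervals cross 0. The dimmest probe set of Umps is inside the background in every array and cannot show a difference.

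Among 39 further measured genes of pyrimidine metabolism, from 7 lists of degradation, synthesis, salvage, deoxynucleotides, kinases, nucleotidases and transporters, limma called 0 higher and 0 lower after adjustment. Before adjustment, at a p of 0.05 or less, limma had 7 higher and 3 lower, and SAM had 7 higher and 4 lower, against limma's 10% and 6.18% and SAM's 9.78% and 5.77% of all genes. The 3 mutants lay above the 3 controls for 8 of the 39 genes and below them for 4, against 14.5% and 8.86% of all genes. Their median log2 fold change was 0.08, against 0.05 over all genes.

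Several genes of thymidine and deoxynucleotide supply had large positive values for these lists without passing the limma test. Rrm1, the large subunit of ribonucleotide reductase, was at 8.48, 8.76 and 8.50 in mutants, against 7.58, 7.94 and 7.89 in controls, with a log2 fold change of 0.78 (SE 0.14, adjusted p = 0.0806). It passed with array weights (0.76, adjusted p = 0.0422). Tk1, the thymidine kinase of dividing cells, was at 7.91, 8.49 and 7.98 in mutants and at 7.32, 7.57 and 7.16 in controls (0.78, SE 0.19, adjusted p = 0.166). Dut, which breaks down dUTP, had 0.60 (SE 0.12, adjusted p = 0.112). All mutants were above all controls for these 3 genes. The reverse held for Rrm2b, the small subunit of ribonucleotide reductase that p53 induces, at -0.59 (SE 0.18, adjusted p = 0.266), and for Samhd1, which breaks down deoxynucleotides, at -0.20 (SE 0.09, adjusted p = 0.415). In the list of thymidylate and deoxynucleotide synthesis, which does not hold Tk1, 8 of the 10 measured genes lay on the higher side in mutants, against 60.4% of all genes, and the median log2 fold change was 0.28. The median of 9 proliferation markers relative to the control mean was 0.74, 1.10 and 0.54 in mutant replicates 1, 2 and 3 and between -0.10 and 0.17 in the controls, their log2 summed signal was 12.23 to 12.54 in mutants and 11.72 to 11.88 in controls, and 0 of the 9 passed the test. Rrm1, Tk1, Dut, Dhodh, Umps and Cad were all highest in mutant replicate 2, where the median of these markers was highest too. The lead was small for Dut, at 7.95 against 7.93 in mutant replicate 1, and for Umps. Of the 9 markers, Mcm2 and Mcm3 were highest in another mutant, Mcm2 in replicate 1 and Mcm3 in replicate 3. Smooth muscle and fibroblast markers were low in mutant replicate 2. The part of proliferation and that of tissue make-up in these differences were not tested.

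Of the remaining lists, Cmpk1, the kinase of UMP and CMP, had 0.17 (SE 0.10, adjusted p = 0.501) with mutants above controls. Nt5c2, a cytosolic nucleotidase that acts mainly on purine nucleotides, was at 7.68, 8.35 and 8.26 in mutants, against 7.28, 7.42 and 6.60 in controls (0.998, SE 0.26, adjusted p = 0.198). Slc29a1, the equilibrative nucleoside transporter ENT1, was at 7.19, 6.49 and 7.36 in mutants, against 7.75, 7.63 and 7.71 in controls (-0.69, SE 0.22, adjusted p = 0.281). It was lowest in mutant replicate 2, where smooth muscle and fibroblast markers were low, and their part in this difference was not tested.

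**Figure D3:**
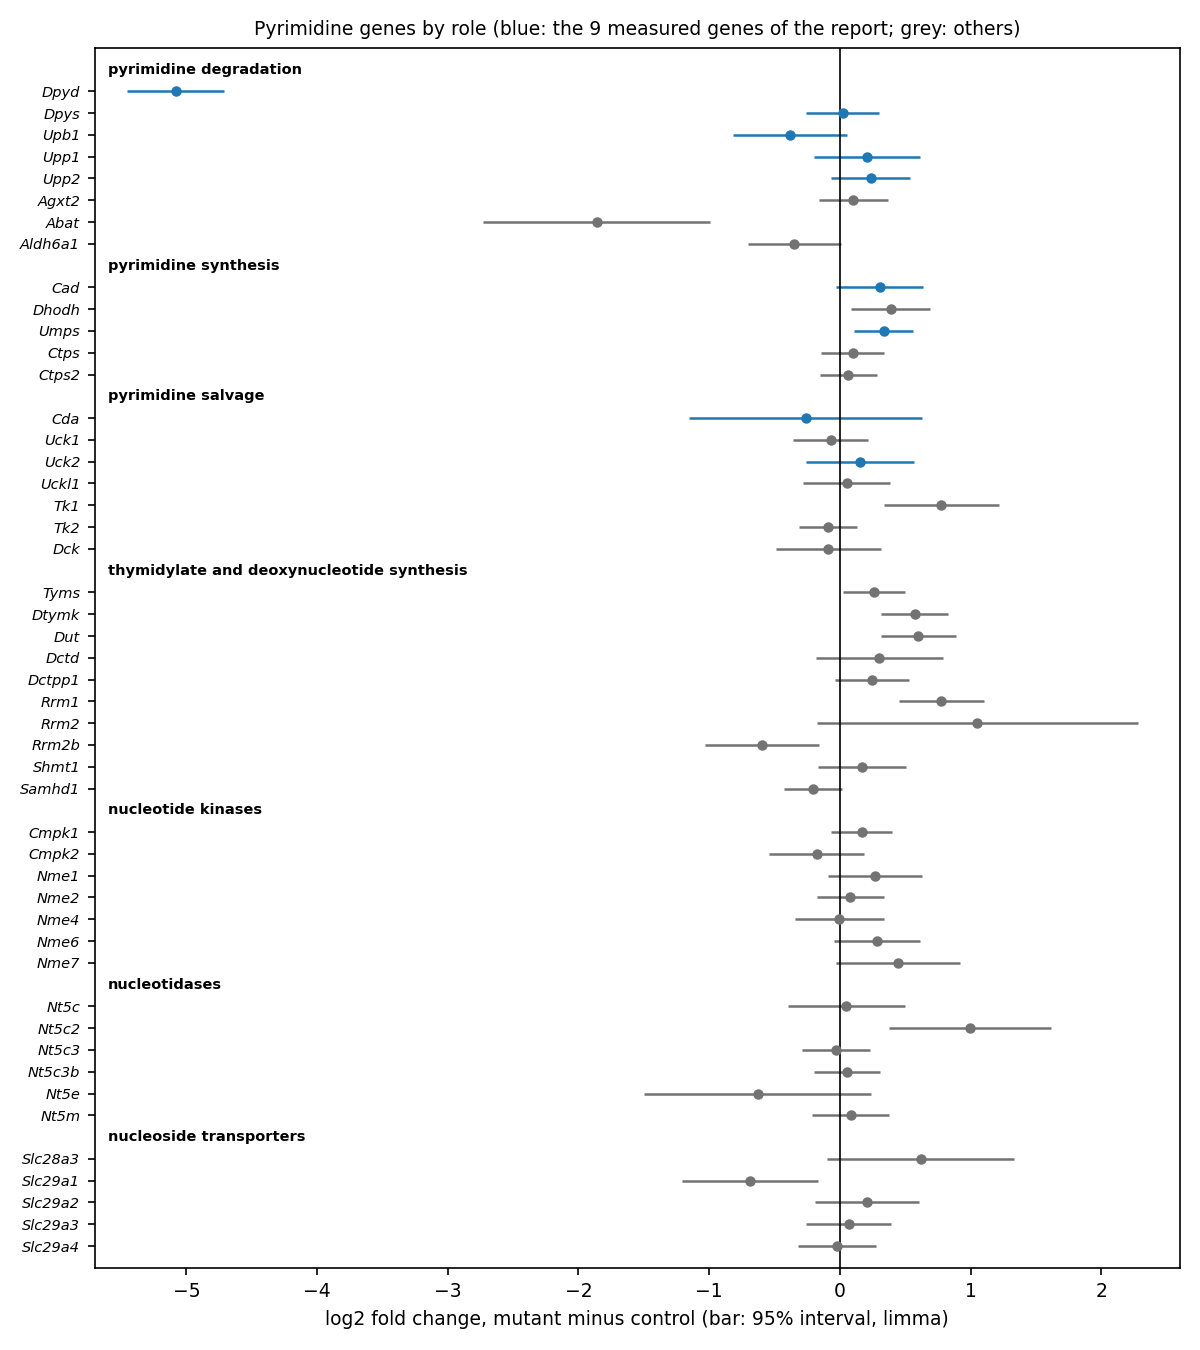
Log2 fold change, mutant minus control, with its 95% interval from limma (horizontal axis) for all measured genes of 7 lists of pyrimidine metabolism (rows), blue for the 9 measured genes of the report and grey for the others. Dpyd at -5.08 stands far outside the range of the other genes, which runs from -1.86 to 1.05.

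The purine genes, measured for comparison, also held 1 degradation enzyme with a large difference. Xdh, xanthine dehydrogenase, which makes uric acid, was at 7.70, 6.70 and 7.54 in mutants, against 9.32, 9.14 and 9.06 in controls. It was the only 1 of 24 purine genes that passed the limma test (log2 fold change -1.86, SE 0.26, adjusted p = 0.0407), against 0.396% of all genes called lower. It did not pass with mutant replicate 1, mutant replicate 3 or any 1 of the controls left out, where the log2 fold change lay between -2.05 and -1.79 and the adjusted p between 0.0536 and 0.198. In the purine lists Hprt (0.38), Pfas (0.46) and Impdh1 (0.44) were higher in every mutant than in every control without passing, as was Uox, whose log2 fold change of 0.10 became -0.03 when scaled to gut epithelium markers. Ampd2 (-0.16) lay below the controls in every mutant. Among the 24 purine genes the mutants lay above the controls for 8 and below them for 3, against 14.5% and 8.86% of all genes.

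The genes whose brightest probe set followed that of Dpyd most closely over the 6 arrays, by Pearson correlation and as a description only, were Otc (r = 0.997), Hnf4a (r = 0.996), Plcb3 (r = 0.995), Gpc3 (r = 0.994) and H2az2 (r = 0.993). With 2 groups of 3 far apart, such values reflect mainly the difference between the groups and the small spread inside them. Otc, ornithine transcarbamylase of the urea cycle, was between 3.96 and 4.01 in mutants, against 8.20, 8.55 and 8.34 in controls, a level at the top of the background in the mutants as for Dpyd. The log2 difference was far smaller in Plcb3 (-0.77), a phospholipase, in Gpc3 (-0.71), a glypican, and in H2az2 (-0.29), a histone variant.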

How the data were processed

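RNA from the proximal colon of 3 Hnf4a mutant and 3 control mice was hybridised to Affymetrix whole-genome mouse arrays. RMA, run by the authors in FlexArray over all 6 arrays, corrected the background, quantile normalized and summarised each probe set, and the deposited log2 signals were used without further scaling. Array medians ran from 5.43 to 5.53 on the log2 scale. Leaving out 64 control probe sets, limma 3.58.1 in R 4.3.3 was fitted to all 45037 probe sets, mutant minus control, with Benjamini-Hochberg adjustment over all of them and a threshold of 0.05. Groups of 3 limit the precision, and the exact permutation test of 3 against 3 gives no two-sided p under 0.1. The arrays are of separate mice. The scripts were tested on simulated data.

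Genes were named from the platform annotation, where 34945 probe sets had 1 symbol, 932 several and 9160 none. Gene lists, members and motifs were chosen with earlier results of these data known. The text names the 10 genes, and of each other list every gene that passed and up to 2 genes in each direction with the largest log2 fold change among those whose groups did not overlap. Aldh6a1, Agxt2, Ctps and Ctps2 were added for their place in the route after their values had been seen. RMA pulls low signals together, so folds of dim probe sets are understated. SAM, the test the methods name, was run with p-values from all arrangements of the 6 arrays pooled over probe sets, a setting that the methods do not give, and without the minimum ratio that the study also required for its gene list. The alternatives were SAM, an intensity trend, array weights, 3 scalings, a filter at a mean log2 signal of 5, the mean over the probe sets of a gene, a replicate block and each array left out.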

Additional observations from a re-analysis of the deposited data

How the results depend on the processing

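The count of the 8 tested genes that passed stayed at 0 in both directions under every alternative except SAM before adjustment (p of 0.05 or less), which had 1 higher (Umps) and 0 lower. After adjustment SAM called 0 of all 45037 probe sets, so its counts of 0 say nothing about these genes. Of the 39 other pyrimidine genes 0 passed in either direction, against 7 higher and 4 lower by SAM before adjustment, and 1 higher (Rrm1) and 1 lower (Abat) with array weights. With each array left out, 0 were higher and 0 to 1 lower, the 1 being Abat without mutant replicate 2. The cause of these changes was not tested. The log2 fold changes of 3 genes that did not pass changed sign. Dpys, at 0.02, had -0.0174 when quantile normalized again, -0.11 when scaled to gut epithelium markers, and -0.051 (without control replicate 3) to 0.104 (without mutant replicate 2) with 1 array left out. Uck2 had 0.02 with that scaling and ran from -0.0133 (without mutant replicate 1) to 0.2606 and Cda from -0.6704 to 0.0388 (without control replicate 1). The mean over all 3 probe sets of Dpyd gave -2.90, since it includes the probe set that was inside the background in every array. The number of probe sets called, 239, was 39 without control replicate 1, 52 without mutant replicate 3, 92 without control replicate 3, 336 without control replicate 2, 599 with array weights and 62 with a replicate block. Scaled to gut epithelium markers, 109 were higher and 223 lower, against 137 and 102 as deposited, and Upp1 had 0.07, Upp2 0.10 and Cda -0.40.

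Arrays with the same replicate number did not consistently deviate together (correlations of -0.06, 0.24 and -0.20 over 26243 probe sets), so the numbers were not taken as pairs. For arrays of different number the correlation ran from -0.32 (mutant replicate 1, control replicate 2) to 0.43 (mutant replicate 1, control replicate 3). Whether any other pairing links the arrays was not tested. With the replicate number as a block, 0 of the 8 tested genes and 0 of the 39 others passed in either direction, Xdh did not pass (adjusted p = 0.0746), and the log2 fold change of Dpyd stayed at -5.08.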
